A study of Mus musculus with 18 samples.

Results

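Lepr, Ebf1, Ebf2, Ebf3, Foxc1, Pdgfra, Pdgfrb and Esm1 are identity genes of the reticular stromal cells of bone marrow that make abundant CXCL12 (CAR cells). These 8 genes were taken by name out of 54446 gene identifiers counted, and all 8 were among the 15516 genes with enough counts to be tested. The profiled RNA came from mice at postnatal day 21, from sorted cells descended from those that had expressed osterix, a regulator of bone formation. The controls are labelled wild type, and the other mice carried a conditional knockout of PTH1R, the receptor of parathyroid hormone, in osteoprogenitors. The labels name neither the allele nor the promoter that drives the deletion. Each genotype gave 3 sorted subsets with 3 libraries each, 18 libraries in 6 groups. The marrow subset was GFP-negative and positive for a marker written as Tm, and is labelled as bone marrow stromal cells. The other subsets are labelled as bone cells and were either GFP-positive or GFP-negative and Tm-positive. Levels are given in CPM, a gene's counts relative to the size of its library, with sizes normalized by the trimmed mean of M-values (TMM), as mean ± SD with n = 3.

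CAR cells are perivascular stromal cells of the marrow that supply CXCL12 and stem cell factor to blood stem cells and progenitors, and many of them are marked by the leptin receptor. They can give rise to marrow adipocytes and osteoblasts. Lepr encodes the leptin receptor, a cytokine receptor that signals through JAK2 and STAT3. Pdgfra and Pdgfrb encode the receptor tyrosine kinases for platelet-derived growth factors. Ebf1, Ebf2 and Ebf3 encode early B-cell factors, related helix-loop-helix transcription factors, of which EBF1 and EBF3 are known to keep the CAR cell state and the marrow cavity open. Foxc1 encodes a forkhead transcription factor required to form and maintain CAR cells. Esm1 encodes endocan, a secreted proteoglycan that is also known from activated endothelial cells and is neither a receptor nor a transcription factor.

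RefSeq promoter sequences (GRCm38.p6) were at hand for 6 of the 8 genes, with 8 start sites in all. Ebf2 and Pdgfrb had no entry. The 250 bases upstream of 4 of these start sites are shown because the genes with the most and the fewest CG dinucleotides stand among them, and because Lepr and Esm1 had nearly the same pattern of levels across libraries and Foxc1 another. The windows are chr7:137314446-137314695 on the minus strand for Ebf3, and on the plus strand chr13:31806396-31806645 for Foxc1, chr4:101717656-101717905 for the second of 2 Lepr start sites and chr13:113209409-113209658 for Esm1. They are written 5′ to 3′ with CG dinucleotides in capitals.
Ebf3: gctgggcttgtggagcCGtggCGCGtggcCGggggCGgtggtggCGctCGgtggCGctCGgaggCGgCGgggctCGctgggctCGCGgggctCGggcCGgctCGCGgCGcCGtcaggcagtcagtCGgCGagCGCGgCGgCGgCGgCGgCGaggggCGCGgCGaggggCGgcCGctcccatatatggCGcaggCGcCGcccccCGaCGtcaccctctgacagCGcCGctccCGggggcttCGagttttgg
Foxc1: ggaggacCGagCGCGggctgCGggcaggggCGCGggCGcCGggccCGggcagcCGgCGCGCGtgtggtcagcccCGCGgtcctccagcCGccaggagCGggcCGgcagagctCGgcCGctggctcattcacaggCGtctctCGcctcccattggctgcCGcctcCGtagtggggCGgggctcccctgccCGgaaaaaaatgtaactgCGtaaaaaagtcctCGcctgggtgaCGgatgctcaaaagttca
Lepr: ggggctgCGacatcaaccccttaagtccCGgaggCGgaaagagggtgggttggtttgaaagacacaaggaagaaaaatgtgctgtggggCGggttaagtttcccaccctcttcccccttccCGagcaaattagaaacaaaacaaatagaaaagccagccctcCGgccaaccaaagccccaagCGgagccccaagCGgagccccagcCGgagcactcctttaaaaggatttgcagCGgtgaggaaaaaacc
Esm1: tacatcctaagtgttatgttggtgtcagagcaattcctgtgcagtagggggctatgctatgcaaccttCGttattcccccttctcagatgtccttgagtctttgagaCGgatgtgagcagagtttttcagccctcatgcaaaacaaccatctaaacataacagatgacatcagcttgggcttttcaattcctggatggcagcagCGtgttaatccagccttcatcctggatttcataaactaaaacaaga
The Ebf3 window held 43 CG dinucleotides and the Foxc1 window 29, against a median of 6 over 32851 promoters of the same length. The Lepr window held 10 and the Esm1 window 3. G and C made up 80% of the Ebf3 window, 70.8% of that of Foxc1, 54.8% of that of Lepr and 44.0% of that of Esm1 (median of all promoters 52.4%). Both strands were searched for 5 motifs. The EBF consensus, TCCC followed by any 2 bases and GGGA, was in 0 of the 8 windows (0.779% of all promoters), the forkhead core GTAAACA in 0 (3.17%) and TATAAA in 0 (12.4%). The GC box GGGCGG was in 3, those of Ebf3, Foxc1 and Lepr (32.7% of all), and CCAAT in 2, those of Foxc1 and of the other Lepr start site (33.8%). These are matches of letters in these windows only.

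Pth1r, the targeted gene, was checked first. It was at 541 to 581 CPM in control marrow against 318 to 373 CPM in knockout marrow, at 1669 to 1911 against 1031 to 1398 CPM in GFP-negative bone and at 4481 to 5035 against 2725 to 4038 CPM in GFP-positive bone. The 2 genotypes did not overlap in any subset, and Pth1r was still counted in every knockout library. Its log2 fold change of knockout over control was -0.70 ± 0.13 (SE) in marrow, -0.56 ± 0.13 in GFP-negative and -0.52 ± 0.13 in GFP-positive bone (edgeR adjusted p = 0.000195, 0.00144 and 0.00226). After correction for a trend with transcript length, described further on, the fall of Pth1r stayed called in marrow (-0.43, adjusted p = 0.00864) but not in GFP-negative bone (-0.24, adjusted p = 0.125) or GFP-positive bone (-0.22, adjusted p = 0.157). Libraries held 16443595 to 27160257 counts, and 3 counts, the limit that a count of 0 allows, correspond to 0.0966 to 0.216 CPM (counting error only). Whether replicate libraries stem from different animals is not stated, and a p-value here therefore reflects only variation among these samples, which may be technical. The marrow subset carried the companions of these genes in CAR cells. A list of 23 such genes, led by Cxcl12, summed to 41582 to 56777 CPM in control marrow, to 2973 to 3669 CPM in control GFP-negative bone and to 1025 to 1131 CPM in control GFP-positive bone. Genes of other lineages were also present in the subset labelled marrow stroma: a list of 10 osteoblast genes summed to 163179 to 242429 CPM in its controls and 75836 to 107653 CPM in its knockouts. One knockout marrow library, replicate 2, held 219.6 CPM of 5 megakaryocyte genes, against 0.770 to 4.48 CPM in the other 17 libraries. Without that library the same count of the 8 genes, 7, was called in marrow.

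Across the subsets of the controls, all 8 genes were highest in marrow, and across genotypes most were higher in the knockout. In knockout marrow 7 of the 8 genes rose (Lepr, Ebf1, Ebf3, Foxc1, Pdgfra, Pdgfrb and Esm1), where 23.1% of all genes tested were called higher by edgeR's quasi-likelihood test at an adjusted p under 0.05. In GFP-negative bone the same 7 rose (21.5% of all genes), and in GFP-positive bone 6 rose (26.0% of all), those 7 without Foxc1. The median log2 fold change of the 8 genes was 1.19 in marrow, 1.74 in GFP-negative bone and 1.52 in GFP-positive bone, and that of all genes tested was -0.04, -0.07 and 0.03. In each subset 7 of the 8 genes had every knockout library above every control library. That held for 26.1% of all genes tested in marrow, 24.7% in GFP-negative bone and 28.8% in GFP-positive bone. Scaling by library totals alone moved the balance of calls over all genes: 4203 of 7053 calls were higher in marrow (3581 of 7425 with TMM), 2344 of 7620 in GFP-negative bone (3335 of 7315) and 2644 of 8566 in GFP-positive bone (4034 of 7953). Of the 8 genes, 7, 6 and 6 were then called higher in these subsets and none lower. In bulk RNA, more cells of a type and more RNA per cell cannot be told apart. The knockout effects grew with transcript length over all genes. Values after removing that trend, called length-corrected, are given beside each of the 8 genes but only some of the other genes.

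**Figure D1:**
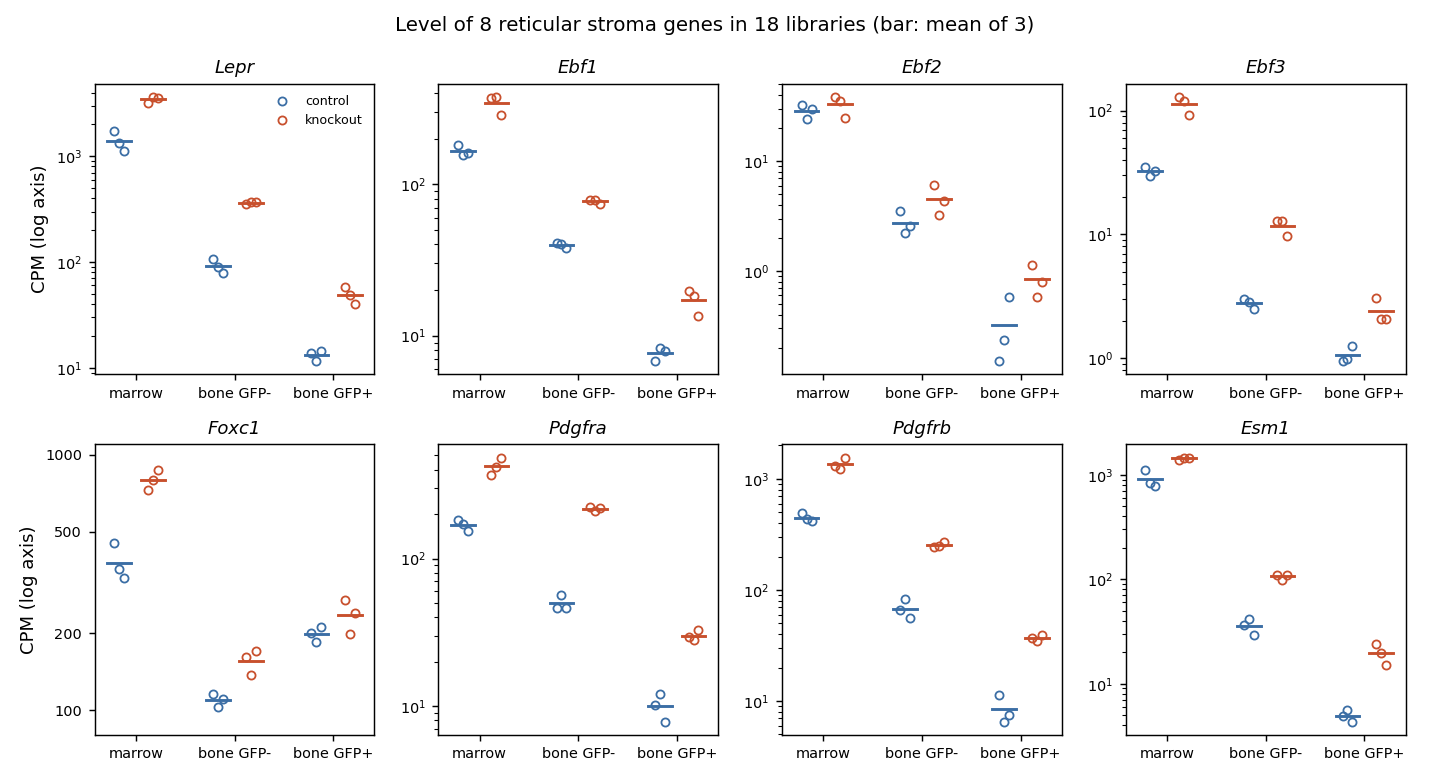
Level of each of the 8 genes in the 18 libraries, in CPM on a log axis with its own range in each panel, by subset (GFP- and GFP+ mark GFP-negative and GFP-positive bone), controls in blue and knockouts in red. Points are libraries and bars the mean of 3. Of the 8 genes, 7 stepped down from marrow to GFP-negative to GFP-positive bone in both genotypes, while Foxc1 was lowest in GFP-negative bone.

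Lepr (ENSMUSG00000057722.17; mm10 chromosome 4, 101717404 to 101815352, plus strand) was the most abundant of the 3 receptors per length in marrow, at 199 ± 44.8 CPM per kb of merged exons in controls and 494 ± 33.4 in knockouts. Its 3 control marrow libraries held 1745, 1347 and 1121 CPM and the 3 knockout marrow libraries 3209.9, 3642 and 3588 CPM. The groups were far apart, with the lowest knockout library above the highest control. Lepr rose by a log2 fold change of 1.31 ± 0.15 (SE) there, a 2.48-fold difference (edgeR adjusted p = 1.03e-06; length-corrected 0.82, adjusted p = 0.000245). In GFP-negative bone Lepr was at 107, 90.5 and 78.4 CPM in controls and at 351, 373 and 368 CPM in knockouts, again without overlap. The rise was 3.96-fold (log2 1.99 ± 0.16, edgeR adjusted p = 1.62e-08; length-corrected 1.45, adjusted p = 8.58e-07). In GFP-positive bone Lepr was low, at 13.8, 11.6 and 14.3 CPM in controls, and 58.3, 48.5 and 39.7 CPM in knockouts. It rose 3.71-fold (log2 1.89 ± 0.17, edgeR adjusted p = 4.52e-08; length-corrected 1.26, adjusted p = 8.62e-06). No pair of groups next to each other in the order of the 6 Lepr means overlapped, from knockout marrow down to control GFP-positive bone.

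The genes of the leptin pathway were read beside the receptor. Lep itself, the hormone, had at most 3 counts in every library and was not tested. Of the 10 other genes of the list, 6 rose and 1 fell in knockout marrow, and 7 rose and 1 fell in each bone subset. Over all genes tested, 23.1% were called higher in marrow, 21.5% in GFP-negative and 26.0% in GFP-positive bone. The gene that fell in all 3 was Leprotl1, a Golgi and endosome protein related to the receptor's overlapping transcript (log2 fold changes -0.35, -0.38 and -0.42 in marrow, GFP-negative and GFP-positive bone). Its calls were lost after length correction (-0.19, -0.18 and -0.23; edgeR adjusted p = 0.116, 0.16 and 0.061). Jak2, the kinase bound to the receptor, rose in all 3, from 24.4 ± 1.64 to 53.8 ± 14.4 CPM in marrow, from 23.8 ± 2.41 to 75.2 ± 10.6 CPM in GFP-negative bone and from 20.2 ± 4.24 to 89.8 ± 6.88 CPM in GFP-positive bone. Its log2 fold changes were 1.15 ± 0.17, 1.66 ± 0.18 and 2.16 ± 0.17 (edgeR adjusted p = 2.02e-05, 3.92e-07 and 1.46e-08), and it stayed called higher after length correction (0.78, 1.25 and 1.67). Stat3, the main transducer of leptin signals, rose by 0.34, 1.04 and 1.89 on the log2 scale. In marrow it was called lower after length correction (-0.25, edgeR adjusted p = 0.0268), while in both bone subsets it stayed higher (0.40 and 1.12). Irs2, an adaptor of insulin and leptin signals, rose most in marrow, from 92.5 ± 18.3 to 439 ± 83 CPM (2.25 ± 0.16; length-corrected 1.61). Its value in GFP-positive bone was 0.74 ± 0.16, and -0.08 after length correction (edgeR adjusted p = 0.708). Socs3, the feedback inhibitor of the receptor, rose in marrow (0.75 ± 0.20, edgeR adjusted p = 0.00565) and was not called in GFP-negative bone (0.29 ± 0.20) or GFP-positive bone (-0.11 ± 0.20). Leprot, the endosomal protein named for a transcript that overlaps the receptor's, was not called in any subset (-0.11, -0.16 and -0.21).

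Pdgfra (ENSMUSG00000029231.15; chromosome 5, 75152292 to 75198215, plus strand) held 183, 171 and 154 CPM in the control marrow libraries and 371, 419 and 484 CPM in the knockout marrow libraries. The knockouts were all higher, by 2.50-fold on average (log2 1.32 ± 0.12, edgeR adjusted p = 9.33e-08; length-corrected 0.61, adjusted p = 0.00114). GFP-negative bone held 46.3, 56.5 and 46.5 CPM in controls and 224, 211 and 219 CPM in knockouts, a 4.37-fold rise (log2 2.13 ± 0.13, edgeR adjusted p = 1.21e-09; length-corrected 1.38). These knockout bone libraries stood above every control marrow library, so that Pdgfra was the only one of the 8 genes whose second highest group was a bone group. In GFP-positive bone it went from 10.1, 12 and 7.85 CPM to 29.6, 27.9 and 32.6 CPM, a log2 fold change of 1.57 ± 0.14 (edgeR adjusted p = 4.99e-08; length-corrected 0.67, adjusted p = 0.00182). Exons of Pdgfra share 456 and 166 bases with the unnamed antisense gene models Gm42802 and Gm42803 and 30 bases with Mir7025 on the same strand, and reads from those stretches may have been counted for any of them.

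Pdgfrb (ENSMUSG00000024620.11; chromosome 18), which also marks pericytes, was the more abundant PDGF receptor in marrow. Its control marrow libraries held 491, 438 and 414 CPM and its knockout marrow libraries 1298, 1237 and 1557 CPM. That was a 3.04-fold rise without overlap (log2 1.61 ± 0.15, edgeR adjusted p = 9.09e-08; length-corrected 1.15, adjusted p = 3.74e-06). In GFP-negative bone the levels were 65.5, 82.1 and 55.8 CPM in controls and 242, 250.2 and 270.4 CPM in knockouts (log2 1.90 ± 0.15, edgeR adjusted p = 2.22e-08; length-corrected 1.40). In GFP-positive bone they were 11.2, 6.51 and 7.46 CPM and 37.3, 34.6 and 39.2 CPM (log2 2.13 ± 0.17, edgeR adjusted p = 1.66e-08; length-corrected 1.54). Per length, Pdgfra made up 17.1 ± 0.417% of the PDGF receptor signal in control marrow and 14.5 ± 1.05% in knockout marrow. The share was 28.8 ± 2.15% and 31.9 ± 1.49% in control and knockout GFP-negative bone, and 39.9 ± 9.15% and 30.7 ± 0.520% in GFP-positive bone, where the controls varied most.

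Of the 4 PDGF ligand genes, 3 fell in knockout marrow, where 24.8% of all genes tested were called lower, and both receptors rose there. Pdgfc, a ligand that signals mainly through PDGFRA, fell from 43.5 ± 5.50 to 14.1 ± 3.30 CPM (-1.62 ± 0.17, edgeR adjusted p = 4.25e-07). Pdgfa fell from 49.2 ± 10.4 to 24.8 ± 3.33 CPM (-0.99 ± 0.16, edgeR adjusted p = 5.49e-05). Pdgfb, the classical ligand of PDGFRB, was rare and fell from 3.28 ± 1.86 to 0.485 ± 0.148 CPM (-2.75 ± 0.43, edgeR adjusted p = 1.47e-05). All 3 stayed called lower after length correction (-1.57, -0.68 and -2.60). Pdgfd was at 130.2 ± 8.03 CPM in control marrow and 107 ± 15.1 CPM in knockout marrow and was not called (-0.28 ± 0.12, edgeR adjusted p = 0.059). In the bone subsets edgeR called 0 of the 4 ligands. At an unadjusted p under 0.05 it marked 2 in GFP-positive and 0 in GFP-negative bone, and DESeq2 called 1 and 0. Markers of pericytes and smooth muscle, cells that also express Pdgfrb, moved the other way in marrow: 6 of 10 fell and 1 rose, and their summed level was 917 to 2810.5 CPM in control and 456 to 675 CPM in knockout marrow. Cnn1, a smooth muscle calponin, fell by 5.0 and Acta2, smooth muscle actin, fell by 3.96 on the log2 scale, while Notch3, a receptor of mural cells, rose by 2.28. In GFP-positive bone the same list summed to 131 to 155 CPM in controls and 556 to 847 CPM in knockouts, with 3 members higher and 1 lower. Of all genes tested, 26.0% were called higher there. The part of these cells in the Pdgfrb values was not tested.

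**Figure D2:**
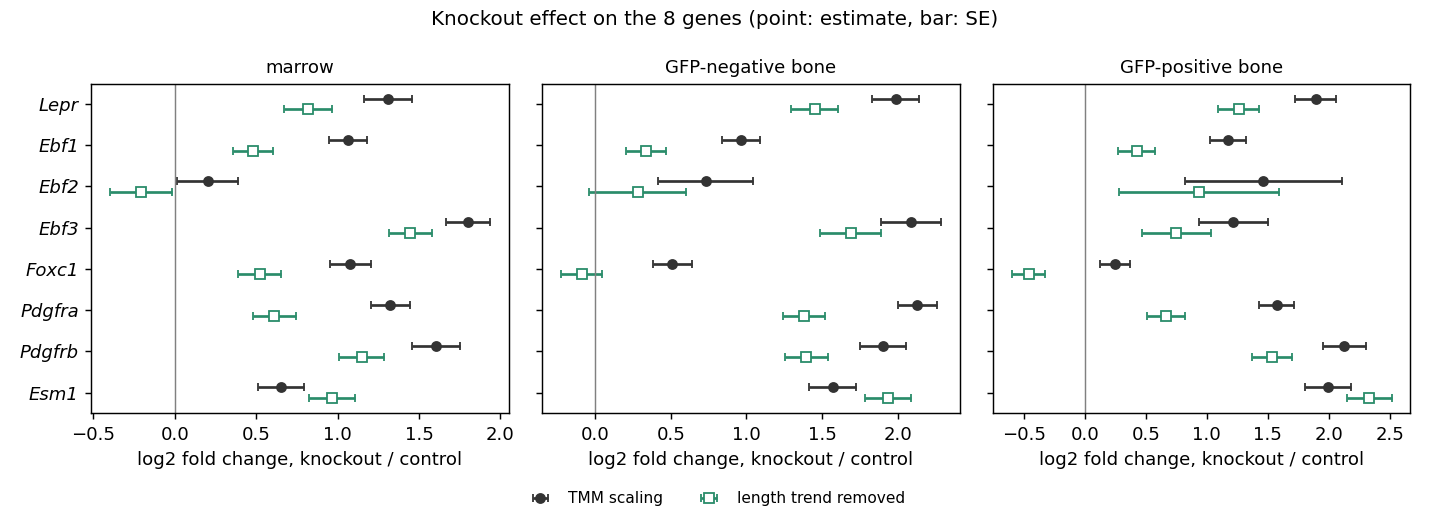
Log2 fold change of knockout over control for the 8 genes in each subset, with the SE as bar, from the fit with TMM scaling (black circles) and after the trend on transcript length was removed (green squares). Length correction lowered the values of 7 genes and raised that of Esm1, from 0.65 to 0.97 in marrow, and it turned Foxc1 below 0 in both bone subsets and Ebf2 below 0 in marrow.

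Among the transcription factors, Ebf1 (ENSMUSG00000057098.14; chromosome 11, 44617317 to 45008091, plus strand) was the main EBF gene in every group. It held 180.4, 156 and 161 CPM in control marrow and 374, 378 and 287 CPM in knockout marrow, where it rose 2.09-fold (log2 1.06 ± 0.12, edgeR adjusted p = 7.14e-07; length-corrected 0.48, adjusted p = 0.00475). GFP-negative bone went from 40.8, 40.2 and 37.8 CPM to 78.3, 79.1 and 74.2 CPM, with libraries of each group close together (log2 0.96 ± 0.12, edgeR adjusted p = 3.69e-06). GFP-positive bone went from 6.80, 8.33 and 7.94 CPM to 19.8, 18.2 and 13.5 CPM (log2 1.18 ± 0.15, edgeR adjusted p = 1.86e-06). In both bone subsets the length-corrected rise was much smaller, 0.34 (adjusted p = 0.0494) and 0.43 (adjusted p = 0.033). Ebf1 is also a factor of B lineage cells. The 10 B lineage markers summed to between 0.709 and 9.50 CPM in the 18 libraries. In GFP-positive bone they summed to 0.868 to 1.37 CPM in controls and 1.87 to 7.05 CPM in knockouts. Pax5 had at most 3 counts in every library, and it was the only one of the 10 for which that held. Blnk, also of the list, was called lower in knockout marrow (-1.79, edgeR adjusted p = 0.00643) and higher in knockout GFP-positive bone (1.67, adjusted p = 0.0257). After length correction the call of Blnk stayed in marrow (-2.02, edgeR adjusted p = 0.0031) and was lost in GFP-positive bone (1.37, adjusted p = 0.0738). Cd79a was then called higher in GFP-positive bone (1.91, adjusted p = 0.0417). The part of B lineage cells in the Ebf1 values was not tested.

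Ebf3 (ENSMUSG00000010476.14; chromosome 7, 137193673 to 137314445, minus strand) had the largest rise of the 8 genes in marrow. Its control libraries held 35.1, 29.9 and 32.6 CPM and its knockout libraries 129, 119 and 92 CPM, a 3.49-fold difference (log2 1.80 ± 0.13, edgeR adjusted p = 9.8e-09; length-corrected 1.45, adjusted p = 1.9e-07). In GFP-negative bone Ebf3 went from 3.01, 2.83 and 2.52 CPM to 12.8, 12.8 and 9.76 CPM, a 4.24-fold rise (log2 2.09 ± 0.20, edgeR adjusted p = 1.21e-07; length-corrected 1.69). GFP-positive bone had little Ebf3, 0.950, 0.987 and 1.25 CPM in controls and 3.06, 2.09 and 2.09 CPM in knockouts (log2 1.22 ± 0.28, edgeR adjusted p = 0.00129; length-corrected 0.75, adjusted p = 0.0403). Control GFP-negative and knockout GFP-positive bone, neighbours in the order of its means, overlapped. Its exons share 355 bases with the antisense model Gm45278.

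Ebf2 (ENSMUSG00000022053.13; chromosome 14, 67233292 to 67430918, plus strand) was the exception among the EBF genes. In marrow its libraries overlapped, with 32.3, 24 and 30 CPM in controls and 38.6, 35.6 and 24.7 CPM in knockouts, and the difference was not called (log2 0.20 ± 0.19, edgeR adjusted p = 0.403; length-corrected -0.21, adjusted p = 0.422). In GFP-negative bone they lay at 3.51, 2.20 and 2.58 CPM in controls and at 6.05, 3.25 and 4.33 CPM in knockouts, also with overlap (log2 0.73 ± 0.32, edgeR adjusted p = 0.0646; length-corrected 0.28, adjusted p = 0.527). In GFP-positive bone Ebf2 was close to the limit of detection. Values were 0.152, 0.237 and 0.578 CPM in controls and 1.14, 0.582 and 0.792 CPM in knockouts, without overlap but close together (log2 1.46 ± 0.64, edgeR adjusted p = 0.0655; length-corrected 0.94, adjusted p = 0.271). Ebf2 was called higher in GFP-positive bone without control replicate 3 (log2 2.12, edgeR adjusted p = 0.0266) and in GFP-negative bone without control replicate 1 (0.93, adjusted p = 0.044) or knockout replicate 2 (0.94, adjusted p = 0.0303). DESeq2 called it higher in both bone subsets (1.49, adjusted p = 0.00324, and 0.83, adjusted p = 0.0171). Its exons share 424 bases with the antisense model Gm10860.

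The makeup of the EBF family shifted in marrow and GFP-negative bone. Expressed per kb of merged exons, Ebf1 made up 68.9 ± 1.37% of the 3 genes in control marrow and 67.6 ± 1.25% in knockout marrow. Ebf2 went from 16.8 ± 1.31% to 8.99 ± 0.664% and Ebf3 from 14.3 ± 0.203% to 23.4 ± 0.753%, with no overlap of libraries for either. In GFP-negative bone Ebf3 went from 6.34 ± 0.260% to 12.9 ± 1.36%, also without overlap. In GFP-positive bone the Ebf3 share was 12.1 ± 1.24% in controls and 12.2 ± 1.57% in knockouts, a difference within the spread of the libraries. These shares are given without a test. Of 4 relatives and partners of the EBF and FOXC factors, 2 rose in knockout marrow, 3 in GFP-negative bone and 1 in GFP-positive bone. The shares of all genes tested that were called higher there were 23.1%, 21.5% and 26.0%. Zfp521, a zinc finger protein that binds EBF1, rose in all 3 (1.67 ± 0.17, 1.75 ± 0.17 and 1.23 ± 0.17), and its relative Zfp423 in marrow (1.61 ± 0.15) and GFP-negative bone (0.83 ± 0.17). After length correction the Zfp521 values were 1.05, 1.09 and 0.43 (edgeR adjusted p = 0.0436 for the last). Those of Zfp423 were 1.27 and 0.46. In GFP-positive bone Zfp423 was at -0.40 ± 0.20 (edgeR adjusted p = 0.0991), and after length correction it was called lower (-0.84, adjusted p = 0.00152). Ebf4 was called higher in GFP-negative bone (0.77 ± 0.29, edgeR adjusted p = 0.037) at low levels of 4.14 ± 1.48 and 6.93 ± 1.37 CPM. Foxc2, the closest relative of Foxc1, was not called in any subset (0.56 ± 0.37, 0.35 ± 0.42 and -0.31 ± 0.41).

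**Figure D3:**
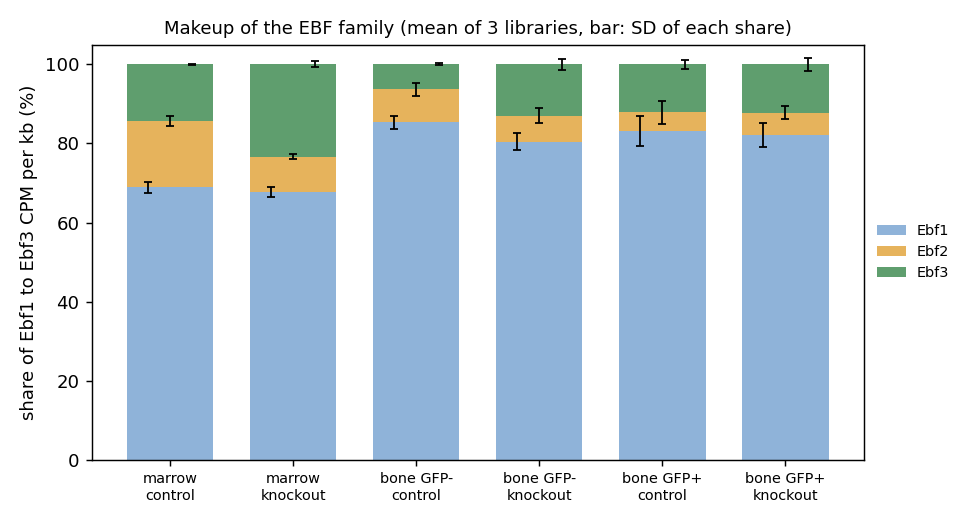
Share of Ebf1, Ebf2 and Ebf3 in their summed CPM per kb of merged exons, as the mean of 3 libraries per group, with the SD of each share as bar at the top of its segment. The Ebf3 segment is larger in knockout than control marrow (23.4% against 14.3%) and GFP-negative bone (12.9% against 6.34%), and about equal in GFP-positive bone (12.2% against 12.1%).

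Foxc1 (ENSMUSG00000050295.4; chromosome 13, 31806633 to 31812476, plus strand) stood apart from the other 7 genes in where it was found and in how it responded. Its marrow libraries held 451, 356 and 329 CPM in controls and 726, 800.4 and 872 CPM in knockouts, all knockouts above all controls (log2 1.08 ± 0.13, edgeR adjusted p = 1.37e-06; length-corrected 0.52, adjusted p = 0.00424). In GFP-positive bone it was still abundant, at 200.3, 185 and 212 CPM in controls, and the knockouts, at 269.6, 198 and 241 CPM, overlapped them. That difference was not called (log2 0.25 ± 0.13, edgeR adjusted p = 0.108), passed the threshold without knockout replicate 2 (0.36, adjusted p = 0.0293), and was called lower after length correction (-0.46, adjusted p = 0.00942). GFP-negative bone held the least Foxc1, 116, 103 and 110.1 CPM in controls and 161, 137 and 170.3 CPM in knockouts. It rose there by 0.51 ± 0.13 (edgeR adjusted p = 0.0028), and the call was lost after length correction (-0.09, adjusted p = 0.655) and with library totals as the only scaling (0.26, adjusted p = 0.102). The direction of the knockout effect on Foxc1 in bone differed with the processing, while in marrow it was the same under every alternative tried.

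Esm1 (ENSMUSG00000042379.8; chromosome 13, 113209659 to 113218098, plus strand) had, with Lepr, the largest step between marrow and bone. Its control marrow libraries held 1117, 836 and 789 CPM and its knockout marrow libraries 1392, 1455 and 1463 CPM. Without length correction this rise was the smallest among the 7 genes called there, 1.57-fold (log2 0.65 ± 0.14, edgeR adjusted p = 0.000997). In GFP-negative bone Esm1 went from 36.9, 41.5 and 29 CPM to 110.4, 98.4 and 110.5 CPM, a 2.97-fold rise (log2 1.57 ± 0.16, edgeR adjusted p = 1.94e-07). In GFP-positive bone it went from 4.90, 5.60 and 4.33 CPM to 24.3, 19.5 and 15.1 CPM, a 3.99-fold rise (log2 2.0 ± 0.19, edgeR adjusted p = 8.64e-08). Esm1 has the shortest transcript of the 8 genes, 2097 bases, and its 3 rises were larger after length correction (0.97, 1.93 and 2.33). In marrow, endothelial genes were rare beside Esm1. The 12 markers of endothelial cells summed to 7.57 to 49.2 CPM in the 18 libraries. Of the 12, Cdh5, Flt1, Cldn5 and Erg had at most 3 counts in both marrow groups, and Kdr in control marrow. The other markers had more counts in at least 1 library of each marrow group. In control marrow the 12 summed to 23.2 to 49.2 CPM, the highest mean of the 6 groups. In control GFP-positive bone the 12 markers summed to 7.696 to 21.97 CPM, above Esm1 in every library. In knockout GFP-positive bone they summed to 8.498 to 27.5 CPM, which overlapped the Esm1 values. The part of endothelial cells in the Esm1 values was not tested. Of the 11 endothelial genes tested, 1 rose (Vwf) and 2 fell (Emcn and Esam) in knockout marrow. In GFP-negative bone 3 rose (Flt1, Kdr and Pecam1, the last added after its values were seen) and 2 fell (Cldn5 and Esam). In GFP-positive bone Flt1 alone rose. The shares of all genes called higher were 23.1%, 21.5% and 26.0% in marrow, GFP-negative and GFP-positive bone. In marrow 24.8% were called lower, and in GFP-negative bone more of all calls were lower than higher. In knockout marrow the markers summed to 38.8 CPM in replicate 2, the library with the megakaryocyte genes, and to 7.57 and 9.72 CPM in the others. Whether the Vwf rise rests on that library was not tested. Flt1, a receptor of vascular endothelial growth factor, went from 0.0418 ± 0.0725 to 0.955 ± 0.671 CPM in GFP-negative and from 0.345 ± 0.00939 to 2.33 ± 1.47 CPM in GFP-positive bone.

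Relative to Cxcl12, the chemokine that defines CAR cells, Esm1 varied little in values without length correction. Per kb of merged exons it was at 16.4 ± 0.517% of the Cxcl12 level in control marrow, 17.3 ± 1.80% in knockout marrow, 12.2 ± 0.673% and 13.2 ± 0.230% in control and knockout GFP-negative bone, and 17.7 ± 3.56% and 18.1 ± 0.836% in GFP-positive bone. Over the same 6 groups Cxcl12 itself ranged from 111 ± 17 CPM to 32665 ± 3653 CPM. Lepr was at 7.47 ± 0.710% of Cxcl12 in control marrow and between 12.5 and 13.5% in the 3 knockout groups, which lay close to each other. Among the controls its ratio was 9.38 ± 0.995% in GFP-negative and 14.1 ± 3.15% in GFP-positive bone. For Ebf1 the ratio was higher in bone than in marrow, 0.647 ± 0.0647% in control marrow, 2.95 ± 0.474% in GFP-negative and 5.85 ± 0.388% in GFP-positive bone. Foxc1 differed most: 2.44 ± 0.112% in control marrow, 13.7 ± 2.98% in control GFP-negative bone and 255 ± 46.9% in control GFP-positive bone, where it exceeded Cxcl12. These ratios are within-library descriptions without a test or length correction. After that correction Esm1 rose by 0.97 in knockout marrow, while Cxcl12 was not called there, so the steady ratio in marrow depends on the processing.

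In controls all 8 genes were lower in GFP-positive bone than in marrow (33.0% of all genes tested were called lower) and all 8 were lower in GFP-negative bone than in marrow (18.2%). In the knockouts all 8 were again lower in GFP-positive bone (34.7%) and in GFP-negative bone (24.3%) than in marrow. In none of these comparisons did libraries of the groups overlap for any of the 8 genes, as was so, in the same direction, for 34.9% and 23.3% of all genes in the controls and 36.2% and 29.1% in the knockouts. The depth of the step differed among them. As a share of the control marrow mean, GFP-negative bone held 3.92% of Esm1, 6.54% of Lepr, 8.57% of Ebf3, 9.62% of Ebf2 and 15.1% of Pdgfrb, but 23.9% of Ebf1, 28.9% of Foxc1 and 29.4% of Pdgfra. GFP-positive bone held 0.541% of Esm1, 0.941% of Lepr, 1.12% of Ebf2 and 1.88% of Pdgfrb, between 3.27 and 5.90% of Ebf3, Ebf1 and Pdgfra, and 52.5% of Foxc1. The log2 fold changes of GFP-positive bone over marrow in controls ran from -7.52 ± 0.20 for Esm1 (edgeR adjusted p = 3.27e-16) and -6.73 ± 0.19 for Lepr (adjusted p = 7.38e-16) to -0.93 ± 0.13 for Foxc1 (adjusted p = 3.21e-06). Those of GFP-negative bone over marrow ran from -4.67 ± 0.17 for Esm1 to -1.77 ± 0.13 for Pdgfra (adjusted p = 9.23e-14 and 1.72e-09). The medians over the 8 genes were -5.34 for GFP-positive and -3.06 for GFP-negative bone, against -0.05 and 0.03 over all genes.

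Between the bone subsets of the controls, 7 of the 8 genes were lower in GFP-positive than in GFP-negative bone (21.8% of all genes tested were called lower) and Foxc1 was higher (18.2% called higher). Foxc1 was at 199 ± 13.6 CPM in GFP-positive and 109 ± 6.58 CPM in GFP-negative bone (log2 0.86 ± 0.13, edgeR adjusted p = 2.43e-05). Among the 7 others the differences ran from -3.14 ± 0.50 for Ebf2 (adjusted p = 5.5e-05) and -3.01 ± 0.17 for Pdgfrb (adjusted p = 1.51e-10) to -1.40 ± 0.28 for Ebf3 (adjusted p = 0.000512). The knockouts showed the same 7 lower (24.9% of all genes) and Foxc1 higher (25.5%), with Foxc1 at 0.60 ± 0.13 (edgeR adjusted p = 0.000625). Chondrocyte genes were far higher in bone than in marrow: a list of 10 summed to 1906 to 2541 CPM in control marrow, 35705 to 48283 CPM in control GFP-negative bone and 121057 to 145506 CPM in control GFP-positive bone. In the knockouts the list summed to 2512 to 2702 CPM in marrow, 27244 to 36184 CPM in GFP-negative bone and 332814 to 366036 CPM in GFP-positive bone. Of its 10 genes 8 rose and 1 fell in knockout GFP-positive bone, where 6 of the 8 reticular stroma genes rose. In GFP-negative bone 2 rose and 5 fell, and in marrow 5 rose and 3 fell. Of all genes tested, 26.0% were called higher in knockout GFP-positive bone, 21.5% in GFP-negative bone and 23.1% in marrow. In marrow 24.8% were called lower. More of all calls were lower than higher in GFP-negative bone, and fewer in GFP-positive bone. The part of chondrocytes in the subset differences and the knockout effects of the 8 genes was not tested.

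**Figure D4:**
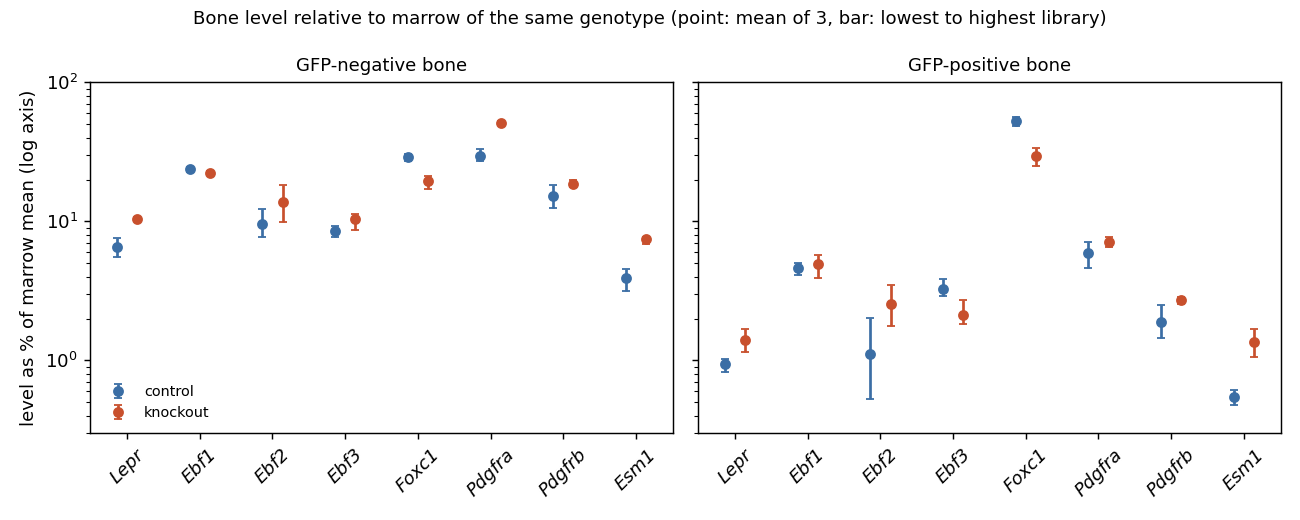
Level of each gene in GFP-negative (left) and GFP-positive (right) bone as a percentage of its marrow mean in the same genotype, on a log axis, controls in blue and knockouts in red. Points are means of 3 libraries and bars run from the lowest to the highest library. Esm1 and Lepr are lowest in controls, Foxc1 is highest in GFP-positive bone, and Pdgfra in GFP-negative bone is at 29.4% in controls and 51.4% in knockouts.

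The knockout effect was then compared between subsets by interaction contrasts in the same fit. Between GFP-positive bone and marrow it differed for 2 of the 8 genes, against 18.4% of all genes tested: the effect on Esm1 was larger in GFP-positive bone by 1.34 ± 0.24 (edgeR adjusted p = 0.000731) and that on Foxc1 was smaller by a difference of -0.83 ± 0.18 (adjusted p = 0.00337). Between GFP-negative bone and marrow it differed for Esm1 (0.92 ± 0.21, adjusted p = 0.00999) and Pdgfra (0.80 ± 0.17, adjusted p = 0.00629), against 7.79% of all genes. The differences for the other genes were not called, among them Lepr, at 0.58 ± 0.22 in GFP-positive bone minus marrow (adjusted p = 0.0767) and 0.68 ± 0.21 in GFP-negative bone minus marrow (adjusted p = 0.0559). Among genes of at least 20 CPM, libraries of the subsets with the same replicate number deviated together within a genotype. Over all genes tested, correlations over 0.1 were found in 1 of 9 control pairs and 8 of 9 knockout pairs. Whether the numbers pair libraries is not settled. With the replicate number as a block 2 more genes were called between GFP-negative bone and marrow, 4 in all: Lepr (0.67, edgeR adjusted p = 0.0247) and Foxc1 (-0.58, adjusted p = 0.0237). With the block Lepr was also called between GFP-positive bone and marrow (0.56, adjusted p = 0.0442), though not with the block and length correction together (0.41, adjusted p = 0.149), and DESeq2 without a block called both Lepr differences (adjusted p = 0.0416 and 0.00873). The Lepr difference without the block passed the threshold when control marrow replicate 3 was left out (0.72 in GFP-positive and 0.82 in GFP-negative bone minus marrow, adjusted p = 0.0268 and 0.0176), when control GFP-negative replicate 1 was (0.80, adjusted p = 0.0397) and when knockout GFP-positive replicate 3 was (0.71, adjusted p = 0.0352). Foxc1 between GFP-negative bone and marrow passed it without control marrow replicate 1 (-0.71, adjusted p = 0.0122), and Pdgfrb between GFP-positive bone and marrow without control GFP-positive replicate 1 (0.80, adjusted p = 0.0151). With library totals Ebf3 was called lower between GFP-positive bone and marrow (-1.10, adjusted p = 0.0198), as it was with the block and length correction together (-0.72, adjusted p = 0.0492). Library totals also called Foxc1 lower between GFP-negative bone and marrow (-0.95, adjusted p = 0.00135), while Pdgfra and Esm1 were then not called there (adjusted p = 0.1 and 0.072).

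Between GFP-positive and GFP-negative bone edgeR called 0 of the 8 differences, against 6.08% of all genes. At an unadjusted p under 0.05 there were 2, Pdgfra (-0.55 ± 0.19, adjusted p = 0.0931) and Ebf3 (-0.87 ± 0.36, adjusted p = 0.179), and DESeq2 called both (adjusted p = 0.0228 and 0.0445). With the replicate block edgeR called 1, Pdgfra (-0.54, adjusted p = 0.0377), which was also called without control GFP-positive replicate 3 (-0.68, adjusted p = 0.0333). These differences share the control libraries of each subset with the knockout effects themselves.

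Transcript length moved with the knockout effect over all genes. Across 15511 genes the length of the longest annotated transcript and the log2 fold change had a Spearman correlation of 0.406 in marrow, 0.444 in GFP-negative bone and 0.437 in GFP-positive bone (across genes, which are not independent replicates). The longest transcripts of the 8 genes had a median of 5482.5 bases, against 3163 bases over the genes tested, and all but that of Esm1 were longer than the latter. Genes in the same length bin as Ebf3 had a median log2 fold change of 0.34 in marrow, where Ebf3 was at 1.80, and those in the bin of Pdgfrb and Lepr one of 0.49, where these were at 1.61 and 1.31. In the bin of Ebf1 and Foxc1 the median was 0.64 in marrow, against 1.06 and 1.08 for these genes. In GFP-positive bone Foxc1, at 0.25, was below the median of its bin, 0.90, and Ebf1, at 1.18, was above it. Esm1 was above its bin in all 3 subsets, most in GFP-positive bone (2.0 against -0.38). After the trend was removed the correlations were 0.0202, 0.0197 and 0.0289. Then 7 of the 8 genes were called higher in marrow (19.2% of all genes), 6 in GFP-negative bone (17.6%), and 6 higher (20.9%) and 1 lower (21.4%) in GFP-positive bone. Whether the trend is a property of the cells or of the libraries was not tested.

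**Figure D5:**
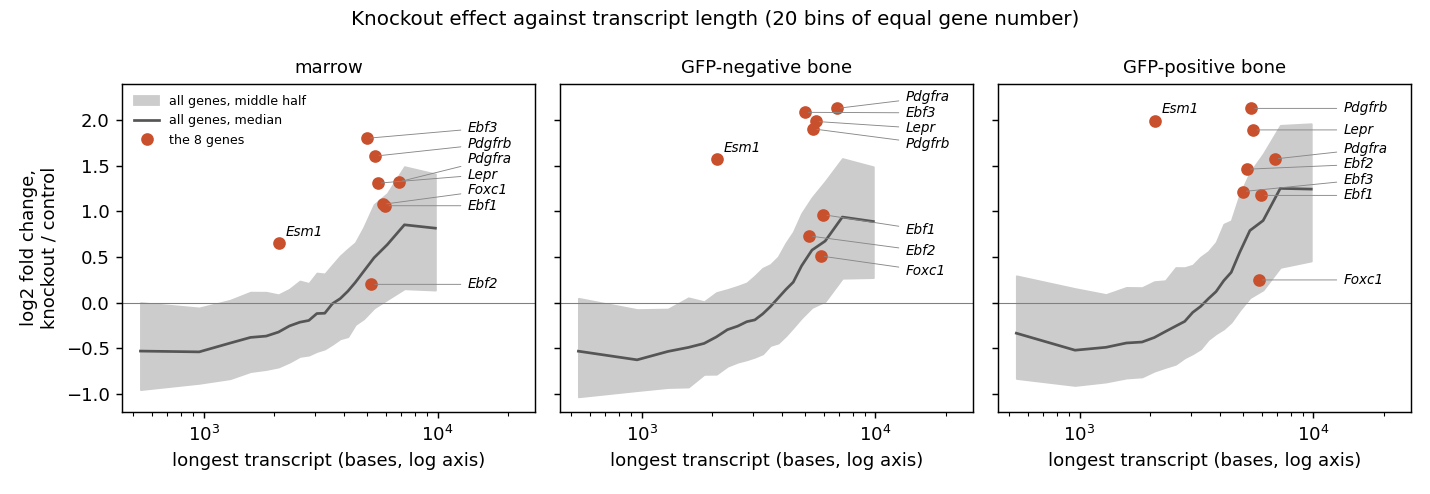
Knockout effect (log2 fold change) against the longest annotated transcript in bases (log axis) in each subset. The line is the median and the grey band the interquartile range of all genes in 20 bins of equal gene number, and red points are the 8 genes. Esm1, at 2097 bases, lies above the band in all 3 subsets, and Foxc1 lies below the median of its bin in both bone subsets.

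Most of the listed companions of the 8 genes in CAR cells also rose in the knockouts. The list was chosen with earlier results of these data known, so its counts describe and are not independent support. They are given without length correction. Of the 23 listed genes 18 rose in knockout marrow, 21 in GFP-negative bone and 21 in GFP-positive bone, where 1 fell. Among all genes tested, 23.1%, 21.5% and 26.0% were called higher in these subsets. The median log2 fold changes of the list were 1.12, 1.46 and 1.62, against -0.04, -0.07 and 0.03 over all genes. Cxcl12 itself rose in all 3 subsets, from 21745 ± 4021 to 32665 ± 3653 CPM in marrow (0.59 ± 0.16, edgeR adjusted p = 0.00648), where the call was lost after length correction (0.08, adjusted p = 0.752), by 1.45 ± 0.17 in GFP-negative bone and by 1.92 ± 0.17 in GFP-positive bone. Epas1, a hypoxia-inducible factor subunit, rose most in marrow, from 86.3 ± 3.42 to 509 ± 68.3 CPM (2.56 ± 0.15, edgeR adjusted p = 9.34e-10), followed by Angpt1, a ligand of the TIE2 receptor (1.84 ± 0.14, adjusted p = 1.14e-08). In GFP-negative bone the largest rises were those of Grem1, a BMP antagonist (3.16 ± 0.27, adjusted p = 4.36e-08), and Epas1 (2.64 ± 0.16), and in GFP-positive bone those of Angpt1 (2.68 ± 0.24) and Grem1 (2.64 ± 0.50, adjusted p = 0.000191). Chrdl1, another BMP antagonist, fell in GFP-positive bone (-0.70 ± 0.14, adjusted p = 0.000363). Markers of mature adipocytes rose in marrow in 8 of 8 cases, led by Plin1, a lipid droplet coat protein (3.69 ± 0.21, adjusted p = 4.31e-10), and Retn (3.37 ± 0.39), and their summed level went from 203 to 263 CPM in control to 737 to 764 CPM in knockout marrow. Of the same 8 adipocyte genes 6 rose in GFP-negative bone and 2, Plin1 and Pparg, in GFP-positive bone. Over the marrow groups 9 of 10 osteoblast genes and 7 of 10 genes of fibroblasts and periosteum fell. There 24.8% of all genes tested were called lower. In GFP-negative bone 4 osteoblast genes rose, 1 fibroblast gene rose and 5 fell. In GFP-positive bone 5 osteoblast genes rose and 2 fell and 4 fibroblast genes fell. Over all genes tested, more calls were lower than higher in GFP-negative bone and fewer in GFP-positive bone. The 10 osteoblast genes summed to 303303 to 343430 CPM in control and 447430 to 653263 CPM in knockout GFP-negative bone. In GFP-positive bone they summed to 41488 to 67967 CPM and 66744 to 84581 CPM, which overlapped. After length correction 3 osteoblast genes were called higher and 0 lower in GFP-positive bone, where the falls of Bglap and Bglap2 (adjusted p = 0.0752 and 0.163) and the rises of Runx2 and Col1a2 (adjusted p = 0.487 and 0.112) were lost. In GFP-negative bone the rises of Runx2 and Col1a1 were lost (adjusted p = 0.352 and 0.884). The part of these cell types in the changes of the 8 genes was not tested.

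Likeness of pattern was described by the Pearson correlation of log2 CPM over the 18 libraries, among 10700 genes of at least 5 CPM in their highest group. These values share libraries and are dominated by the step between subsets. The genes most like Lepr were Dpep1, a membrane dipeptidase, and Kitl, the gene of stem cell factor (both r = 0.997), followed by Gas6 (0.996). Ebf1 was nearest to Plxdc2 (0.997), Csf1 (0.993) and Dpep1 (0.992), and Ebf2 to Ggt5 and Hp (0.989) and Adipoq, the adiponectin gene (0.987). Ebf3 was nearest to St5 (0.992), Vcam1 and Podn (0.989). Pdgfra was nearest to Ltbp1 (0.989), Abi3bp (0.987) and Zeb2 (0.986), and Pdgfrb to Heph (0.995), Ism1 (0.994) and Col4a1 (0.993). Esm1 was nearest to Cxcl12 (0.996), Dpep1 and Adipoq (both 0.995). Foxc1 was nearest to the amino acid transporter gene Slc1a5 (0.984), Chst15 (0.963) and Itga1 (0.961), none of which was near another of the 8 genes. Among the 8 genes the closest pair was Lepr and Esm1 (0.993), all pairs without Foxc1 were at 0.9 or above, and those with Foxc1 ran from 0.54 (Pdgfra) to 0.775 (Ebf3).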

How the data were processed

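RNA was measured in 18 libraries, 3 for each of 6 groups. The authors deposited 1 table of raw counts per gene, with no normalization. Per the submitters' processing notes, the genome build was mm10 and STAR, featureCounts and DESeq2 were used, without versions. Per the labels' protocols, RNA was amplified with SMART-Seq v4. The settings for strand and multimapping are not given in the sources used here. Reads of overlapping antisense genes therefore cannot be told apart. Of 54446 gene identifiers 54409 were matched to a symbol in the GENCODE annotation.

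Counts were tested with edgeR 4.0.16 in R 4.3.3 (quasi-likelihood, robust, two-sided). One fit over all 18 libraries had a mean for each group and TMM scaling, with 12 residual degrees of freedom. filterByExpr (minimum count 10) left 15516 genes. Adjusted p is Benjamini-Hochberg over these genes, with a threshold of 0.05, over 12 comparisons. CPM per kb used merged exons. For length correction, each library's deviation of log2 CPM from the gene mean was smoothed on the log2 of the longest transcript (lowess, span 0.3) and entered as an offset. The fits were tested on simulated data. Alternatives were DESeq2 1.42.0, library totals, no filter, only the groups compared, a replicate block, length correction, leaving out each library and, chosen after seeing the data, the legacy quasi-likelihood fit. No 2 replicates agreed within counting noise, which does not show that they stem from separate animals. Each library was counted as 1 replicate, as labelled.

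Groups share replicate numbers, and the labels do not say that these pair libraries. Over 5761 genes of at least 20 CPM, deviations of same-numbered libraries correlated at over 0.1 in 2 of 9 pairs of knockout and control (-0.157 to 0.309), and in 9 of 9 pairs of subsets in controls (0.135 to 0.345) and 9 of 9 in knockouts (0.174 to 0.421). By this check same-numbered libraries deviated together more often across subsets than across genotypes, which does not settle whether the numbers pair libraries. The reported fit has no block for the number, and blocked values of the comparisons between subsets are given where they change a call. Over all 15516 genes 0, 1 and 8 of 9 pairs passed 0.1.

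The 8 genes and the 14 gene lists were chosen with earlier results of these data known. All 8 genes are named with their values, as are genes of the leptin, PDGF and EBF lists. Of other lists up to 2 called genes with the largest rise and fall per knockout comparison are named, and Pth1r. For likeness the 3 genes of highest correlation are named. Cxcl12 and Pecam1 were added after their values were seen.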

Additional observations from a re-analysis of the deposited data

Results flagged for a closer look

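The knockout effect differed between subsets, by an interaction contrast in the edgeR fit, for 3 of the 8 genes: 2 between GFP-positive bone and marrow, where 18.4% of all genes tested were called, and 2 between GFP-negative bone and marrow, where 7.79% were. With the replicate number as a block Lepr was called in both (0.56, edgeR adjusted p = 0.0442, and 0.67, adjusted p = 0.0247) and Foxc1 also between GFP-negative bone and marrow (-0.58, adjusted p = 0.0237). Without the block, for Esm1 it was larger in GFP-positive bone than in marrow by a log2 difference of 1.34 ± 0.24 (SE; edgeR adjusted p = 0.000731), and larger in GFP-negative bone than in marrow by 0.92 ± 0.21 (adjusted p = 0.00999). For Pdgfra it was larger in GFP-negative bone than in marrow by 0.80 ± 0.17 (adjusted p = 0.00629). For Foxc1 the difference between GFP-positive bone and marrow was -0.83 ± 0.18 (adjusted p = 0.00337), so that its effect was smaller in bone. Over 20 other settings each, the Esm1 difference in GFP-positive bone ran from 0.82 to 1.49 and that of Foxc1 from -1.35 to -0.72, and all 20 passed the threshold for both. The Pdgfra difference ran from 0.43 to 0.91 and the Esm1 difference in GFP-negative bone from 0.54 to 1.04. For these 19 of 20 settings passed, the exception being scaling by library totals (adjusted p = 0.1 for Pdgfra and 0.072 for Esm1).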

How the results depend on the processing

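Among recomputed counts of called genes, 177 stayed within 1.5 times the reported count and 9 did not. Among recomputed values of single genes, 1433 kept their direction and side of the threshold, 36 newly passed it in the same direction, 3 kept their direction but no longer passed it and 16 changed direction. Among the last, Foxc1 in GFP-negative bone lost its call with length correction (edgeR adjusted p = 0.655) and with the block and length correction (0.596), and Foxc1 in GFP-positive bone was then called lower (0.00942 and 0.00437). In the comparisons between subsets all 8 genes stayed called under every alternative. With 1 library left out, 7 genes were called in marrow, 6 to 7 in GFP-positive bone and 7 to 8 in GFP-negative bone, and 2 to 3, 2 to 3 and 0 to 1 for the differences of the knockout effect (GFP-positive minus marrow, GFP-negative minus marrow, GFP-positive minus GFP-negative). The single call in the last came without control GFP-positive replicate 3. Other counts in the last comparison, reported as 0, were 2 with DESeq2, 1 without a filter, 1 with length correction, 1 with the replicate block and 2 with the block and length correction. For GFP-negative bone minus marrow, reported as 2, they were 1 with library totals (Foxc1, -0.95, edgeR adjusted p = 0.00135, which is neither of the reported genes), 4 with the replicate block and 4 with the block and length correction. As the labels do not pair knockout and control libraries, the block for the knockout effect is a check only. It added Ebf2 in GFP-positive (1.45, edgeR adjusted p = 0.0404) and GFP-negative bone (0.71, adjusted p = 0.0427), and changed no other call of the 8 genes. The legacy fit also called Ebf2 in GFP-positive bone (1.44, adjusted p = 0.0145), as did the fit of only those groups (1.48, adjusted p = 0.0472).

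Directions turned in these cases, and the cause was not tested. With library totals the values were -0.13 for Foxc1 in GFP-positive bone, -0.40 for Ebf1 and -0.27 for Pdgfra in GFP-positive bone minus marrow, and -0.082 for Ebf3 and -0.080 for Pdgfrb in GFP-negative bone minus marrow. That scaling moved the median log2 fold change of all genes from -0.04 to 0.08 in marrow, from 0.03 to -0.34 in GFP-positive and from -0.07 to -0.30 in GFP-negative bone. With length correction they were -0.21 for Ebf2 in marrow, -0.46 and -0.087 for Foxc1 in GFP-positive and GFP-negative bone, and -0.053 for Ebf1 in GFP-positive bone minus marrow. With the replicate block and length correction these were -0.21, -0.47, -0.091 and -0.064. With 1 library left out the Ebf1 difference between GFP-positive bone and marrow ran from -0.0070 to 0.25 and the Lepr difference between the bone subsets from -0.22 to 0.033. Depth limits Ebf2 most: in GFP-positive bone its controls lay at 0.152 to 0.578 CPM, where 3 counts are 0.0966 to 0.216 CPM.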
